A study of Mus musculus with 20 samples.

Results

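The heat shock genes of the cytosol were followed through 4 lines of mouse embryo fibroblasts before and after a treatment designed to excise exons of the Ubf gene. Only the Ubf fl/fl lines carry the lox sites for this excision, and the Ubf wt/wt lines are controls that keep the gene. A list of 10 genes was set: the Hsp70 genes Hspa1a, Hspa1b and Hspa8, the Hsp110 genes Hspa4l and Hsph1, the Hsp90 gene Hsp90aa1, the J-domain genes Dnajb1 and Dnaja1, the small heat shock gene Hspb1 and the cochaperone gene Bag3. For each gene the probe set that names this gene alone and has the highest mean over all arrays was used, which gave values for 9 of the 10 genes among 15272 genes tested. Hspa1b has no probe set of its own here, because the probe set listed with it, 10450367, is also listed with Hspa1a.

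The arrays came from immortalized fibroblasts (iMEFs) with Ubf fl/fl, iMEFs with Ubf wt/wt, primary fibroblasts (MEFs) with Ubf fl/fl and MEFs with Ubf wt/wt. All 4 lines were homozygous for the ER-Cre transgene, a recombinase that 4-hydroxytamoxifen (4-HT) brings into the nucleus. 4-HT was given to each at 50 nM over 4 h, and RNA was taken at 0, 24, 48, 72 and 96 h after it (h pHT), with 1 array for each line and time and so no replicate arrays. The primary cells were prepared from E14.5 embryos, and the immortalized cells were made from such MEFs by transfection of the SV40 T/t antigens. Each combination of cell type and genotype is a single line, so the genotype cannot be told apart from other differences between lines. The p-values below therefore measure the scatter between times or between lines and not that between independent cultures of 1 condition.

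Heat shock proteins fold new proteins and refold or hold damaged ones. Hsp70 proteins bind and release unfolded stretches in a cycle driven by ATP. J-domain proteins deliver the substrate and speed up ATP hydrolysis, and Hsp110 and BAG proteins exchange the nucleotide so that the substrate is let go. Hsp90 acts later, on proteins that are nearly folded, many of them kinases and steroid receptors, and small heat shock proteins hold unfolded proteins without ATP. After heat or other stress to proteins, the heat shock factor HSF1 induces many of these genes through heat shock elements, which are inverted repeats of the unit GAA. Hspa8 is the exception in this list, since it is abundant without stress.

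On the GRCm38.p6 assembly, Hspa1a lies at chr17:34969359-34972156 and Hspa1b next to it at chr17:34956429-34959238. Hspa8 lies at chr9:40801276-40805202, Hspa4l at chr3:40744500-40796103, Hsph1 at chr5:149616843-149636498 and Hsp90aa1 at chr12:110691036-110696395. Dnajb1 lies at chr8:83608175-83612653, Dnaja1 at chr4:40722468-40734965, Hspb1 at chr5:135887919-135889563 and Bag3 at chr7:128523583-128546981.

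The promoters are shown because HSF1 sites are what the inducible members are known to share. In the RefSeq promoter table (GRCm38.p6), 8 of the 10 genes had an entry, with 12 promoters in all, and Hspa8 and Hsp90aa1 were not searched. The 250 bases before each start were searched for the 2-unit heat shock elements GAANNTTC and TTCNNGAA, each of which reads the same on both strands. At least 1 was found for 5 genes, Hspa1a, Hspa1b, Hsph1, Dnaja1 and Hspb1, and 12.8% of all 32851 promoters of the table hold one. That share counts single promoters, whereas a gene was counted if any of its promoters held one, so the 2 are not alike. Both promoters of Hsph1 hold the same stretch, and Dnaja1 holds it in 1 of 3 promoters. For Hspa4l, Dnajb1 and Bag3 these letters were not in the window. The only promoter of Hspa4l in the table, chr3:40745363-40745662, lies within the span of the gene, so the bases before that span were not searched. An element of 3 alternating units (GAANNTTCNNGAA or TTCNNGAANNTTC, each of which contains both 2-unit forms) was found in the promoters of 0 members and in 0.466% of all promoters. The matched letters are in capitals, within the flanking bases of the strand of the gene.
Hspa1a, chr17:34972233-34972280, minus strand: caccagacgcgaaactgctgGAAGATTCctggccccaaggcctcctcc
Hspa1b, chr17:34959315-34959362, minus strand: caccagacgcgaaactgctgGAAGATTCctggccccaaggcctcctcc
Hsph1, chr5:149636351-149636380, minus strand: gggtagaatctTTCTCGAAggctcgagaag
Dnaja1, chr4:40722324-40722371, plus strand: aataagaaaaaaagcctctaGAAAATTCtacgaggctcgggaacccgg
Hspb1, chr5:135887782-135887849, plus strand: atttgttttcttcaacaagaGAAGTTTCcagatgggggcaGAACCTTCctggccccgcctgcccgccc

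The stretches of Hspa1a and Hspa1b are the same, and 247 of the 250 bases before their starts (98.8%) are equal. The letters lie 104 to 97 bases before the start of Hspa1a and 124 to 117 bases before that of Dnaja1. They are present in 2 copies for Hspb1, between 117 and 90 bases before the start. That of Hsph1 lies within the span of the gene, because another start is annotated further upstream. Members with and without the letters are found on both sides of the comparison of cell types below. With them, Hsph1 and Dnaja1 passed and Hspa1a and Hspb1 did not. Without them in the bases searched, Dnajb1 and Bag3 passed and Hspa4l did not.

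Ubtf, the gene that encodes UBF, had levels of 10.01 to 10.62 in iMEF Ubf fl/fl and 9.49 to 10.45 in iMEF Ubf wt/wt cells, and 10.53 to 10.65 in MEF Ubf fl/fl and 10.22 to 10.75 in MEF Ubf wt/wt cells (log2, 5 times each), so this probe set does not check the excision, and whether its probes lie in the deleted exons was not examined here. All 9 measured fibroblast markers lay over the filter on all 20 arrays, with a mean level of 10.69 to 11.32 in iMEFs and 12.05 to 12.27 in MEFs, and 7 of them were lower in iMEFs. The mean level of 9 macrophage markers was 6.20 to 6.62 in iMEFs and 8.60 to 10.01 in MEFs, all 9 were lower in iMEFs, and 3 of them lay over the filter on no iMEF array. In bulk samples, fewer cells of a type and less RNA per cell cannot be told apart.

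One array stood apart in its line. On the iMEF Ubf fl/fl array at 24 h pHT, 706 of 15272 genes (4.62%) lay more than 1 log2 unit from the mean of the other arrays of the line, 581 of them higher and 125 lower. The array that followed was MEF Ubf fl/fl at 96 h pHT with 570 genes (3.73%), and the other arrays had 15 to 364. Across genes, which are not independent replicates, the deviation of the iMEF Ubf fl/fl 24 h array correlated negatively with the difference between iMEFs and MEFs in the Ubf wt/wt lines, with which it shares no array (Pearson r -0.62, Spearman rho -0.63). For the MEF Ubf fl/fl 96 h array the same correlation was positive (r 0.37, rho 0.46). The mean level of the macrophage markers on the iMEF Ubf fl/fl 24 h array was 6.20, the lowest of all 20 arrays. Members' results that changed call or sign without one of these arrays are given both ways.

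**Figure D1:**
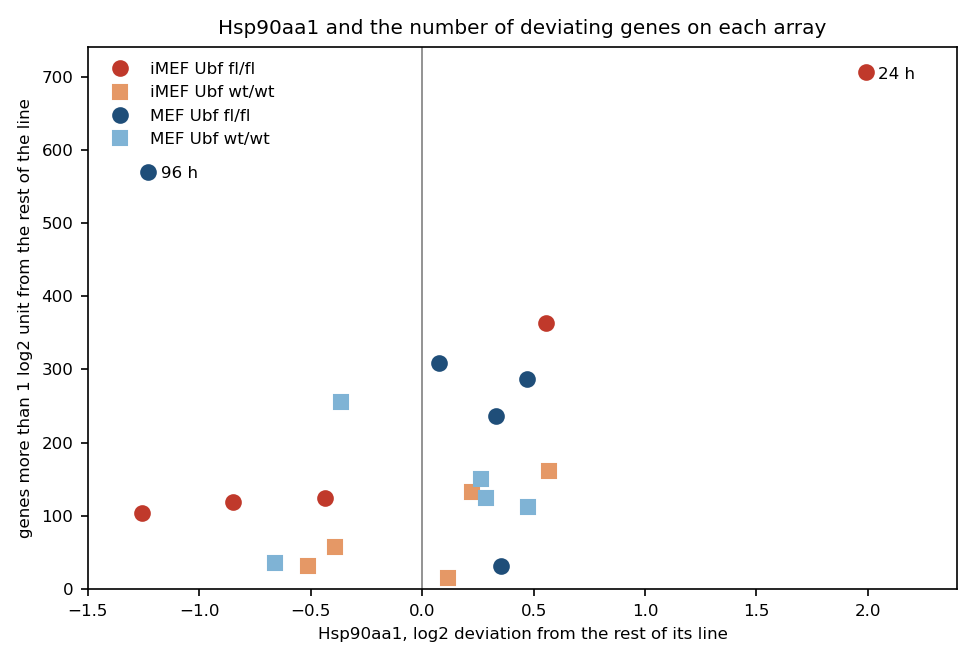
Number of genes more than 1 log2 unit from the rest of their line (vertical axis) against the log2 deviation of Hsp90aa1 from the rest of its line (horizontal axis), with 1 point for each of the 20 arrays. The iMEF Ubf fl/fl 24 h array has 706 such genes with Hsp90aa1 higher by 1.99, and the MEF Ubf fl/fl 96 h array has 570 with Hsp90aa1 at -1.23.

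Hsp90aa1, the stress-inducible cytosolic Hsp90, showed the widest range of the members. In iMEF Ubf fl/fl cells its log2 levels at 0, 24, 48, 72 and 96 h pHT were 8.11, 10.71, 8.44, 8.77 and 9.56. In iMEF Ubf wt/wt cells they were 8.36, 8.26, 8.85, 8.76 and 9.13. The 24 h array of the Ubf fl/fl line was thus far above all other iMEF arrays. In MEF Ubf fl/fl cells the levels were 11.38, 11.69, 11.60, 11.58 and 10.33, and in MEF Ubf wt/wt cells 10.83, 11.33, 10.59, 11.50 and 11.35. All MEF arrays but the one at 96 h pHT in Ubf fl/fl and the one at 48 h pHT in Ubf wt/wt cells lay above the iMEF array at 24 h. By line, the means were 9.12 ± 1.04 in iMEF Ubf fl/fl and 8.67 ± 0.36 in iMEF Ubf wt/wt cells, and 11.32 ± 0.56 in MEF Ubf fl/fl and 11.12 ± 0.39 in MEF Ubf wt/wt cells (SD, n = 5 times). The MEF lines differed by less than either SD, and the iMEF lines by less than the SD of the Ubf fl/fl line, which holds the high 24 h array, but by more than that of the wt/wt line. The other probe sets of Hsp90aa1 followed the one used here (r 0.9988 and 0.9949 over 20 arrays).

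Dnaja1, a J-domain partner of the Hsp70s, moved with it. Its levels at 0 to 96 h pHT were 7.72, 9.53, 8.01, 7.75 and 8.47 in iMEF Ubf fl/fl cells and 7.45, 7.46, 8.27, 7.75 and 8.08 in iMEF Ubf wt/wt cells. They were 10.23, 10.26, 10.33, 10.39 and 9.48 in MEF Ubf fl/fl cells and 9.40, 10.19, 9.81, 10.36 and 10.34 in MEF Ubf wt/wt cells. The high array in iMEFs and the low array in MEF Ubf fl/fl cells are the same as for Hsp90aa1. The probe sets of Dnaja1 disagreed in size and in pattern over time. The difference between iMEFs and MEFs was -2.03 for the one used here and -0.87 for the other that names Dnaja1 alone. That other one, 10503995, correlated with it at r 0.86, and at 0.66 after centring within each line. Its levels in iMEF Ubf fl/fl cells were 5.94, 6.69, 6.30, 6.72 and 7.35, so the 24 h array was not the highest. All further results for Dnaja1 are those of the probe set used here unless stated. A further probe set, listed with both Mir207 and Dnaja1, ran the other way (0.44, r -0.85) and cannot be given to 1 gene.

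Hsph1, an Hsp110 nucleotide exchange factor, had levels of 8.75, 9.52, 8.59, 8.37 and 8.53 in iMEF Ubf fl/fl cells and 7.90, 8.26, 8.51, 7.92 and 7.94 in iMEF Ubf wt/wt cells. In MEFs they were 9.69, 10.09, 9.76, 9.92 and 9.24 in Ubf fl/fl cells and 9.30, 9.90, 9.32, 9.59 and 10.00 in Ubf wt/wt cells. Again the 24 h array of iMEF Ubf fl/fl cells was the highest of all iMEF arrays and the only one to reach into the range of the MEFs. Hspa4l, of the same family, spanned 7.04 to 7.94 in iMEFs (median 7.51) and 7.16 to 7.89 in MEFs (median 7.76), with the lowest MEF value again in Ubf fl/fl cells at 96 h pHT.

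Both Hsp70s stayed within 1 log2 unit over the 20 arrays, as did Hspa4l, Dnajb1 and Bag3. Hspa8, the constitutive Hsp70, lay between 12.82 and 13.22 in iMEFs (median 13.02) and between 13.03 and 13.25 in MEFs (median 13.14). Hspa1a, the inducible Hsp70, lay between 8.71 and 9.40 in iMEFs (median 9.05) and between 8.48 and 9.12 in MEFs (median 8.92). Its lowest value was the 0 h array of MEF Ubf fl/fl cells and its highest the 48 h array of iMEF Ubf wt/wt cells. Probe set 10450367, shared by Hspa1a and Hspa1b, lay between 9.77 and 10.46. It correlated with that of Hspa1a at r 0.67 over 20 arrays and at 0.72 after centring within each line. Its difference between iMEFs and MEFs was 0.30, against 0.11 for that of Hspa1a, and was not tested. For Hspa8, 3 probe sets name the gene alone and differed between iMEFs and MEFs by -0.14 to 0.04, while 2 that are also listed with Snord14c and Snord14d, small nucleolar RNA genes, ran the other way (1.13 each) and cannot be given to 1 gene.

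Dnajb1, the J-domain protein that is induced with Hspa1a, lay between 9.28 and 10.20 in iMEFs (median 9.88) and between 9.23 and 9.74 in MEFs (median 9.50). Its lowest iMEF value was the 96 h array of Ubf fl/fl cells, and the other 9 iMEF arrays lay at 9.70 or above. Hspb1, the small heat shock protein Hsp27, differed between the lines. It was 11.19 to 11.61 in iMEF Ubf fl/fl and 11.99 to 12.53 in iMEF Ubf wt/wt cells, ranges that did not overlap, and 11.15 to 11.55 in MEF Ubf fl/fl and 11.47 to 11.76 in MEF Ubf wt/wt cells, ranges that did. The iMEF difference was there at 0 h pHT (-0.60, Ubf fl/fl minus wt/wt) and ran from -1.04 to -0.60 over the 5 times. Bag3, a nucleotide exchange factor that couples Hsp70 to autophagy, lay between 10.21 and 10.67 in iMEFs (median 10.48) and between 10.55 and 11.07 in MEFs (median 10.78).

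**Figure D2:**
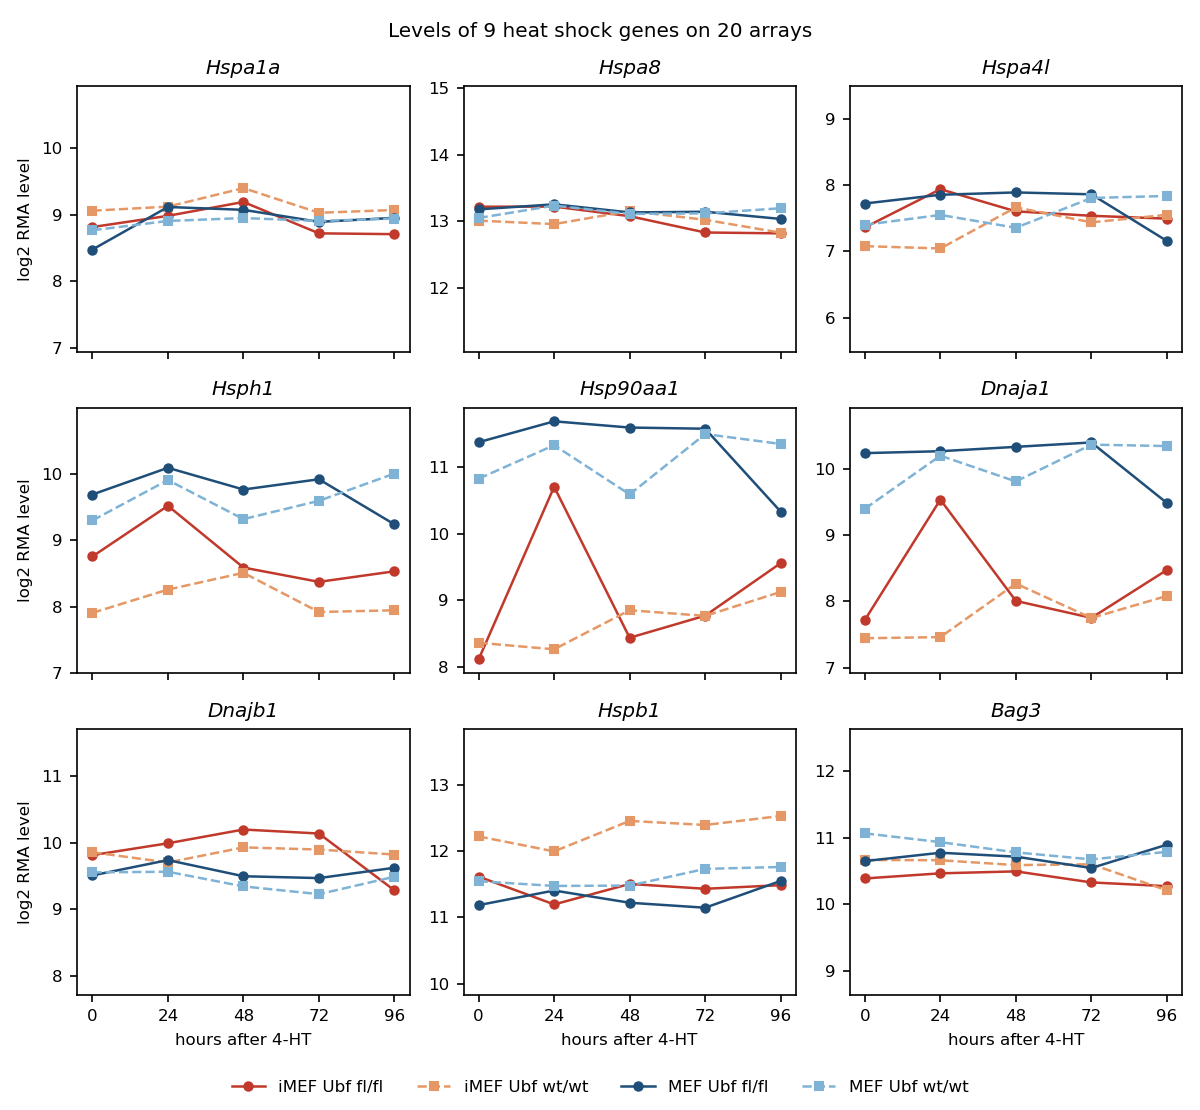
Log2 RMA levels of the 9 measured genes (vertical axes, each spanning 4 log2 units) against hours after 4-HT (horizontal axes), with 1 point per array and 1 line per cell line. Hsp90aa1, Dnaja1 and Hsph1 lie lower in iMEFs and come closest to the MEFs at 24 h pHT in Ubf fl/fl cells, where Hsp90aa1 reached 10.71. Hspa8, Hspa1a, Hspa4l, Dnajb1 and Bag3 each stay within 1 log2 unit throughout.

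The first comparison asked how the immortalized cells differ from the primary ones, with each line averaged over its 5 times and 2 lines against 2. Hsp90aa1 was lower in iMEFs by 5.02-fold (-2.33 ± 0.18 on the log2 scale, SE, adjusted p = 0.00101 from limma), Dnaja1 by 4.08-fold (-2.03 ± 0.18, adjusted p = 0.00133) and Hsph1 by 2.38-fold (-1.25 ± 0.23, adjusted p = 0.0081). Bag3 was slightly lower (-0.32 ± 0.10, adjusted p = 0.0468) and Dnajb1 slightly higher (0.36 ± 0.09, adjusted p = 0.0226). The remaining members did not pass: Hspa1a 0.11 (95% interval -0.19 to 0.41), Hspa8 -0.13 (-0.34 to 0.08), Hspa4l -0.17 (-0.47 to 0.13) and Hspb1 0.43 (-0.36 to 1.23).

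In all, 5 of 9 members passed, 4 lower and 1 higher, while 66.3% of all genes tested passed, 31.2% lower and 35.1% higher in iMEFs. The share of members that passed, 55.6%, is near that background and is not a result about these genes. Their median difference was -0.17, against 0.12 over all genes. A difference larger in size than that of Hsp90aa1 was found for 1.79% of genes and one larger than that of Dnaja1 for 3.21%. The macrophage markers given above differ between the cell types in the same comparison, and their part in these differences was not tested.

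On all arrays, 0 of 9 members had iMEF and MEF values that did not overlap, against 25.6% of genes. Without the iMEF Ubf fl/fl 24 h array this was so for 3 of 9, Hsph1, Hsp90aa1 and Dnaja1, against 37.2% of genes. On the other probe set that names Dnaja1 alone the values overlapped also without that array. There iMEF Ubf fl/fl cells had 7.35 and MEF Ubf fl/fl cells 6.76, both at 96 h pHT. The calls for Hsp90aa1 and Dnaja1 held under every alternative tried, and that for Hsph1 under all but the use of the 0 and 24 h arrays alone (adjusted p = 0.0534). Bag3 lost its call under both other scalings, with the filter at the 60th percentile, without the iMEF Ubf fl/fl line or either MEF line, with the 0 and 24 h arrays alone and without the MEF Ubf fl/fl 96 h array (-0.29, adjusted p = 0.0747), and Dnajb1 when either MEF line or the later times were left out. Hspb1 passed without the iMEF Ubf fl/fl line (0.87, adjusted p = 0.0172) and was at -0.0034 without the iMEF Ubf wt/wt line. Setting the median of the genes kept equal on every array moved the median of all genes by 0.23 to 0.35 and the calls to 7903 higher and 3729 lower, against 5367 higher and 4764 lower as deposited, and Hspa1a then passed (0.34, adjusted p = 0.0494). Relative to the median of all genes, Hspa8 and Hspa4l lay below it under both scalings, although the sign of their own difference turned (0.10 and 0.06).

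**Figure D3:**
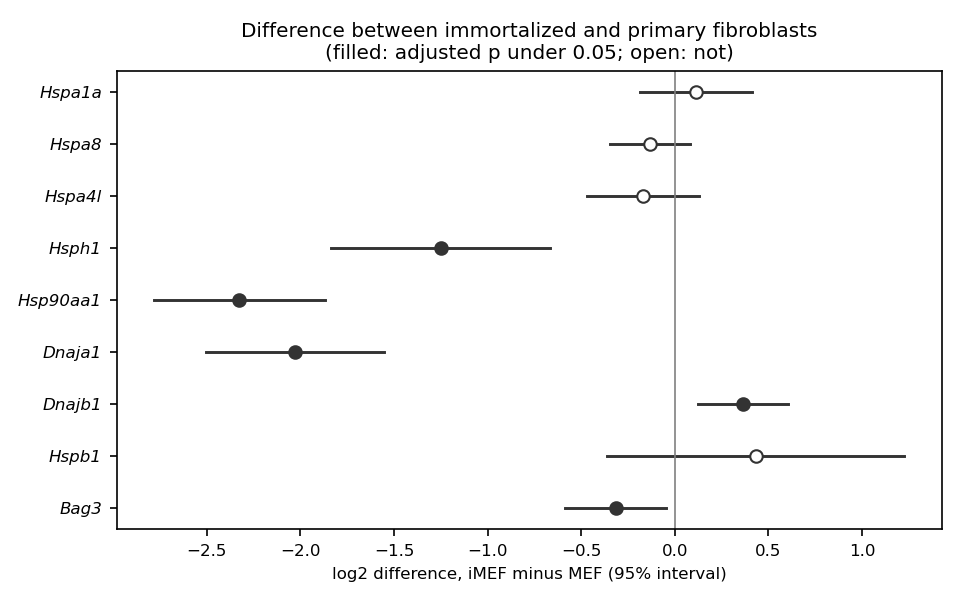
Log2 difference between iMEFs and MEFs (horizontal axis, point) with its 95% interval (bar) for the 9 measured genes, each line averaged over 5 times and 2 lines set against 2. Filled points passed the test, Hsp90aa1 (-2.33), Dnaja1 (-2.03) and Hsph1 (-1.25) lie well below 0, and Hspa1a, Hspa8, Hspa4l and Hspb1 have intervals that include it.

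The second comparison asked whether treatment and the first day in culture changed these genes, with the 4 lines as replicates of time. At 24 h against 0 h pHT, 0 of 9 members passed, as did 0% of all genes (limma, Benjamini-Hochberg). At an unadjusted p under 0.05 there were 2 members, Hsph1 and Hspa1a, among 396 genes, where 764 would be expected with no change in any gene. Hsph1 differed by 0.76 in iMEF Ubf fl/fl, 0.35 in iMEF Ubf wt/wt, 0.40 in MEF Ubf fl/fl and 0.61 in MEF Ubf wt/wt cells, a mean of 0.53 ± 0.20 (adjusted p = 0.993) with the same sign in all 4 lines. Hspa1a differed by 0.17, 0.06, 0.64 and 0.14 in the same lines, a mean of 0.25 ± 0.11 (adjusted p = 0.993). Hsp90aa1 had a larger mean, 0.83 ± 0.40, which came from 1 line: 2.60 in iMEF Ubf fl/fl cells, against -0.10, 0.31 and 0.50 in the other lines. Without that array the mean was 0.35 ± 0.34. Dnaja1 had a mean of 0.66 ± 0.32, with 1.81 in iMEF Ubf fl/fl, 0.02 in iMEF Ubf wt/wt, 0.03 in MEF Ubf fl/fl and 0.80 in MEF Ubf wt/wt cells, and of 0.27 ± 0.27 without that array.

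The third comparison set 48, 72 and 96 h against 0 and 24 h pHT within each cell type, with both genotypes as replicates. None of the members passed in iMEFs (0 of 9, against 6.23% of genes), in MEFs (0 of 9, against 13.4%) or in the difference between them (0 of 9, against 4.16%), with limma. At an unadjusted p under 0.05 there was 1 member in iMEFs, Hspb1, among 3097 genes. There were 0 members among 3891 genes in MEFs and among 2769 in the difference. In each test 764 genes would be expected with no change in any gene. The values ran from -0.30 ± 0.19 for Hsph1 to 0.21 ± 0.10 for Hspb1 in iMEFs, with a median of 0.03 against -0.0013 over all genes, and from -0.15 ± 0.12 for Dnajb1 to 0.14 ± 0.09 for Hspa1a in MEFs, with a median of -0.06 against 0.0039. The 95% intervals over all members reached from -0.73 to 0.85 in iMEFs, both bounds being those of Hsp90aa1, and from -0.94 (Hsp90aa1) to 0.74 (Dnaja1) in MEFs. The change in iMEFs minus that in MEFs ran from -0.19 ± 0.26 for Hsph1 to 0.21 ± 0.52 for Hsp90aa1. These signs rest on single arrays and lines: without the iMEF Ubf fl/fl 24 h array Hsph1 had 8e-04, and without the MEF Ubf fl/fl 96 h array Hsp90aa1 had -0.05.

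Some other genes of the chaperone system passed this test. Of 84 genes in 7 lists of partners, 82 were tested, and Hsf1 and Hsp90ab1 were not among them. At the late times in iMEFs 0 of the 82 were higher and 10 lower, where 2.47% of all genes were higher and 3.77% lower. In MEFs 2 were higher and 12 lower, where 5.68% of all genes were higher and 7.73% lower. The total of 14 of 82 in MEFs is near the 13.4% of all genes that passed. The Hsp90 system gave 4 of these in iMEFs and 3 in MEFs of 11 tested, with median changes of -0.32 and -0.21. Fkbp5, a peptidyl-prolyl isomerase that joins Hsp90 in steroid receptor complexes, fell by 0.62 ± 0.12 in iMEFs (adjusted p = 0.0125) and by 0.92 ± 0.12 in MEFs (adjusted p = 0.000338). Fkbp4, a related isomerase, fell by 0.34 ± 0.09 and by 0.71 ± 0.09 in the same order (adjusted p = 0.0338 and 0.000138). Ahsa1, which stimulates the ATPase of Hsp90, fell by 0.51 ± 0.09 (adjusted p = 0.00553) and by 0.29 ± 0.09 (adjusted p = 0.047).

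Of the other lists, the endoplasmic reticulum chaperones had 1 of 17 lower in iMEFs, Manf, a secreted factor of endoplasmic reticulum stress, and 6 of 17 lower in MEFs, among them Herpud1 (-0.54 ± 0.08, adjusted p = 0.000471), which acts in degradation at the endoplasmic reticulum, and Sdf2l1 (-0.58 ± 0.10, adjusted p = 0.00234), a cofactor of the lumenal Hsp70. Other Hsp70, J-domain and exchange factor genes had Bag2 and Bag1 lower in iMEFs, Stub1 and Hspbp1 lower and Hspa12a higher in MEFs, of 18. The TRiC chaperonin had Cct3 (-0.55 ± 0.11, adjusted p = 0.0141) and Tcp1 lower in iMEFs and Cct7 lower in MEFs, of 14. Among mitochondrial chaperones Hspd1, the Hsp60 chaperonin, was lower in iMEFs (-0.81 ± 0.21, adjusted p = 0.0419), 1 of 10, and 0 of 10 passed in MEFs. Of 8 other small heat shock genes 0 passed in either cell type, and of 4 heat shock factor genes Hsbp1, a binding protein of these factors, was higher in MEFs (0.37 ± 0.10, adjusted p = 0.03). The 10 calls in iMEFs became 0 without the 24 h arrays, among 198 genes called. They became 2 without the 72 h arrays, among 293, and 0 without the 96 h arrays, among 424. The counts in iMEFs depend on single lines and arrays: without the iMEF Ubf fl/fl line 0 of these genes were called, without the iMEF Ubf wt/wt line 18, and without the iMEF Ubf fl/fl 24 h array 3. The 14 calls in MEFs became 1 without the MEF Ubf fl/fl line, 3 without the MEF Ubf wt/wt line, 6 without the 24 h arrays and 4 without the 72 h arrays.

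In the comparison of iMEFs with MEFs, 21 of the 82 partners were higher and 42 lower, against 35.1% and 31.2% of all genes. The endoplasmic reticulum list had the lowest median, -1.08, with 11 of 17 lower and 3 higher. Hsp90b1, the lumenal Hsp90, was lower in iMEFs by 6.78-fold (-2.76 ± 0.18, adjusted p = 0.000862) and Dnajb9, a lumenal J-domain protein, by 5.49-fold (-2.46 ± 0.10, adjusted p = 0.000656). Hspa5, the lumenal Hsp70, was lower by 2.85-fold and Dnajc10, a lumenal J-domain protein with disulphide reductase activity, by 3.50-fold (adjusted p = 0.000788 each). The differences of Hsp90b1 and Dnajb9 were as large as that of the cytosolic Hsp90aa1.

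Of the Hsp90 system, 5 of 11 were lower and 4 higher, led by Chordc1, an Hsp90 cochaperone (-2.54 ± 0.21, adjusted p = 0.00117), and Cacybp (-1.84 ± 0.17, adjusted p = 0.00141). Of the other cytosolic Hsp70, J-domain and exchange factor genes, 9 of 18 were lower and 3 higher. Among them were the J-domain genes Dnajb4 (-2.41 ± 0.12, adjusted p = 0.000741) and Dnaja2 (-1.22 ± 0.08, adjusted p = 0.000865), and Hspa4, another Hsp110 gene (-1.51 ± 0.11, adjusted p = 0.000933). Of TRiC and prefoldin, 8 of 14 were lower and 2 higher, with Cct8 lower by 3.45-fold, and of mitochondrial chaperones 5 of 10 were lower and 3 higher, with Hspd1 also lower by 3.45-fold. Of the other small heat shock genes, 4 of 8 were higher and 2 lower, with Hspb2 (0.97 ± 0.21, adjusted p = 0.0139) and Hspb6 (0.79 ± 0.14, adjusted p = 0.00859) among those higher. Of the heat shock factor list, 2 of the 4 genes tested were higher and 2 lower in iMEFs, and Hsf1 was not tested. Hsf4 (1.68 ± 0.10, adjusted p = 0.000788) and Hsf5 (0.32 ± 0.09, adjusted p = 0.0319) were higher. Hsf2 (-1.14 ± 0.21, adjusted p = 0.00926) and Hsbp1 (-0.40 ± 0.09, adjusted p = 0.0165) were lower. Without the MEF Ubf fl/fl line 40 of the 82 were called, and with the 0 and 24 h arrays alone 25.

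The last comparison asked how excision of Ubf bore on these genes. The late effect was computed as Ubf fl/fl minus wt/wt averaged over 48, 72 and 96 h pHT, less its average over 0 and 24 h. After describing the immortalized cells, the paper reports complete excision and reduced UBF protein in Ubf fl/fl cells by the later of these early times. The early average in iMEFs thus includes arrays taken after excision, and a change already present by then is partly subtracted. The paper names no separate measurement for primary cells, so the loss of UBF in the MEF Ubf fl/fl line is assumed here and was not checked. None of the members passed in iMEFs (0 of 9, against 0.223% of genes), in MEFs (0 of 9, against 0%) or in the difference between cell types (0 of 9, against 0%), with limma. At an unadjusted p under 0.05 there was 1 member, Dnaja1, among 3370 genes in iMEFs, and 0 members among 1052 genes in MEFs and among 1136 in the difference. With the 24 h arrays left out, 0 h alone was the baseline. Then 6 of 9 members were negative in iMEFs, against 58.0% of all genes, and Hsp90aa1 had 0.26. In MEFs 5 of 9 were negative, against 39.5%.

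In iMEFs 8 of 9 values were negative, against 53.6% of all genes, with a median of -0.33 against -0.04. Dnaja1 had -1.13 ± 0.51 (95% interval -2.25 to -0.01, adjusted p = 0.224), Hsp90aa1 -1.09 ± 0.70 (-2.63 to 0.45, adjusted p = 0.374), Hsph1 -0.68 ± 0.33 (-1.40 to 0.04, adjusted p = 0.247) and Hspa4l -0.59 ± 0.30 (-1.26 to 0.07, adjusted p = 0.274). Without the array that stood apart Hsp90aa1 had 0.26 ± 0.61, Dnaja1 -0.23 ± 0.49, Hsph1 -0.48 ± 0.42 and Hspa4l -0.29 ± 0.37, so that the sign for Hsp90aa1 turned, the value for Dnaja1 came close to 0 and those for Hsph1 and Hspa4l were smaller in size. Then 6 of 9 members were negative, against 58.0% of all genes.

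The difference between genotypes at each time was as follows. For Hsp90aa1 in iMEFs, Ubf fl/fl minus wt/wt was -0.25, 2.45, -0.41, 0.00 and 0.43 at 0, 24, 48, 72 and 96 h pHT. For Hsph1 it was 0.85, 1.26, 0.08, 0.45 and 0.59, lower at each late time than at 0 h. For Dnaja1 it was 0.27, 2.07, -0.26, 0.00 and 0.39. Apart from 24 h pHT the genotypes lay within 0.43 of each other for Hsp90aa1 and within 0.39 for Dnaja1.

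The other members had narrower intervals in iMEFs. Hspa8 had -0.33 ± 0.15 (-0.66 to 2e-04, adjusted p = 0.227), and its difference between genotypes was 0.21 and 0.26 at 0 and 24 h and -0.08, -0.19 and -0.01 at 48, 72 and 96 h pHT. Without the array that stood apart it had -0.30 ± 0.19. Hspb1 had -0.28 ± 0.17 (-0.67 to 0.10) and Bag3 0.14 ± 0.17 (-0.23 to 0.51). Hspa1a, the classical marker of heat shock, had -0.10 ± 0.18 (-0.49 to 0.28), and Dnajb1, induced with it, had -0.13 ± 0.24 (-0.66 to 0.40). The signs for Hspa1a and Dnajb1 turned when arrays were scaled on the genes kept (0.07 and 0.04), which moved the median of all genes by 0.17.

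In MEFs the values ran from -0.55 ± 0.51 for Dnaja1 to 0.26 ± 0.17 for Bag3, with 6 of 9 negative against 40.8% of all genes. The median was -0.14, against 0.06 over all genes. Hsp90aa1 had -0.43 ± 0.70 (-1.97 to 1.11), Hspa4l -0.34 ± 0.30 and Hsph1 -0.29 ± 0.33, and Hspb1 -0.14 ± 0.17, Hspa8 -0.11 ± 0.15, Hspa1a 0.08 ± 0.18 (-0.31 to 0.47) and Dnajb1 0.11 ± 0.24 lay closer to 0. Without the 96 h array of Ubf fl/fl cells the values of Hsp90aa1, Dnaja1, Hsph1 and Hspa4l were 0.09 ± 0.66, -0.18 ± 0.48, 0.10 ± 0.21 and -0.02 ± 0.23. Then 4 of 9 members were negative, against 44.0% of all genes, and their median was 0.09, against 0.03. The genotype difference of Hsp90aa1 in MEFs was 0.55, 0.36, 1.01, 0.08 and -1.02 at 0, 24, 48, 72 and 96 h pHT, and only the last array of the Ubf fl/fl line lay below its wt/wt counterpart. In the difference between the cell types all 9 values were negative, against 61.6% of all genes, with a median of -0.24 against -0.11 and intervals that all included 0. Without the iMEF Ubf fl/fl 24 h array 6 of 9 were negative, against 62.8%.

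**Figure D4:**
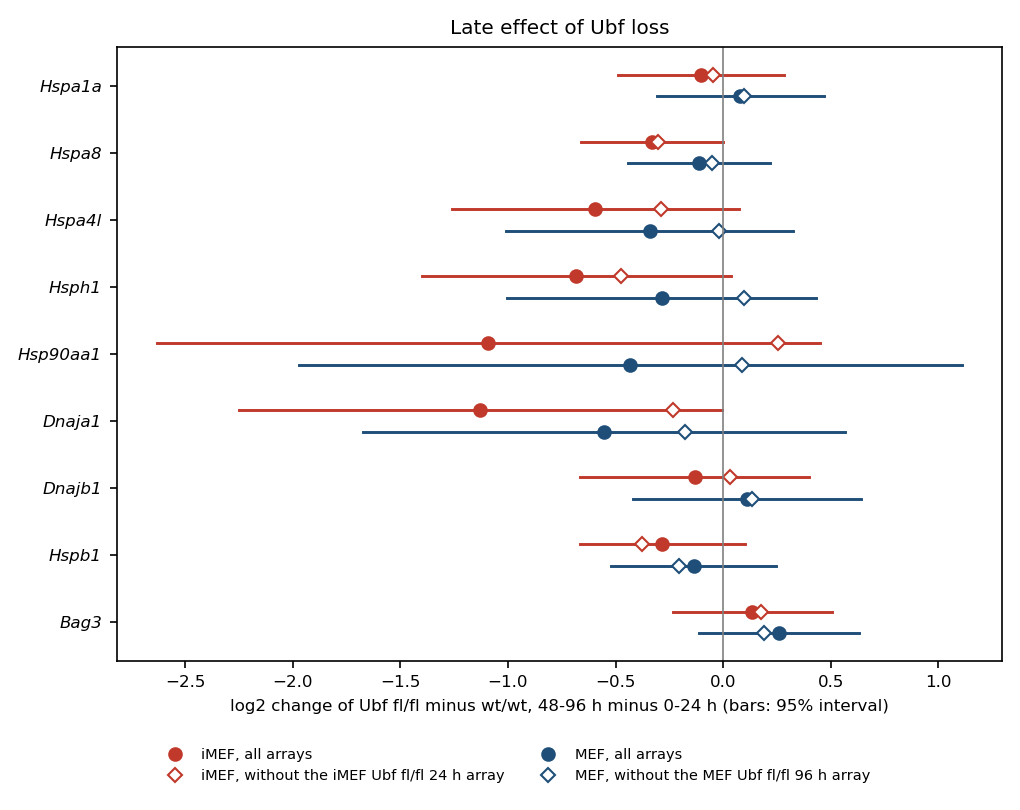
Late effect of Ubf loss (horizontal axis, log2, filled points) with its 95% interval (bars) for the 9 measured genes, iMEFs above MEFs. Open diamonds show the value in iMEFs without the iMEF Ubf fl/fl 24 h array and in MEFs without the MEF Ubf fl/fl 96 h array, with Hsp90aa1 moving to 0.26 and 0.09.

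Of the 82 partner genes 0 passed for the late effect of Ubf loss in iMEFs, in MEFs or in the difference (limma). In iMEFs 64 of 82 values were negative, against 53.6% of all genes, and without the iMEF Ubf fl/fl 24 h array 62 of 82, against 58.0%. The endoplasmic reticulum chaperones had 15 of 17 negative with a median of -0.53, and TRiC and prefoldin 14 of 14 with a median of -0.43, against -0.04 over all genes. Without that array these became 16 of 17 with -0.37 and 12 of 14 with -0.25, against -0.06, while the Hsp90 system had 5 of 11 negative, against 10 of 11 with it. In MEFs the medians of the endoplasmic reticulum and TRiC lists were -0.27 and -0.15, against 0.06, and without the MEF Ubf fl/fl 96 h array -0.10 and -0.0047, against 0.03. When the 96 h arrays were left out, 22 of the 82 partners and 1 member, Hsph1 (-0.79 ± 0.20, adjusted p = 0.0391), passed in iMEFs, among 1663 genes. With the iMEF Ubf fl/fl 24 h array left out, 0 genes passed.

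The members did not vary as a single group. After centring each gene within its line, Hsp90aa1 and Dnaja1 correlated at r 0.92 over 20 arrays and at 0.80 without the 2 arrays that stood apart. Hspa4l correlated with Dnaja1 at 0.83 (0.79 without them) and with Hsp90aa1 at 0.79 (0.66). The relation of Hsph1 with Hsp90aa1 rested more on those arrays, with 0.67 and 0.19 without them. Hspa1a was weakly related to Hsp90aa1 (0.06) and Dnaja1 (0.23), and Bag3 ran against Hspa4l, Dnaja1 and Hsp90aa1 (-0.45, -0.36 and -0.33). Hspa8 correlated best with Hsph1 (0.73, and 0.63 without them). For Hspb1 the relations with Hspa4l (0.05), Dnaja1 (-0.17) and Hsp90aa1 (-0.24) became 0.75, 0.51 and 0.43 without them. The arrays of a line share cells and culture history, so these are descriptions.

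**Figure D5:**
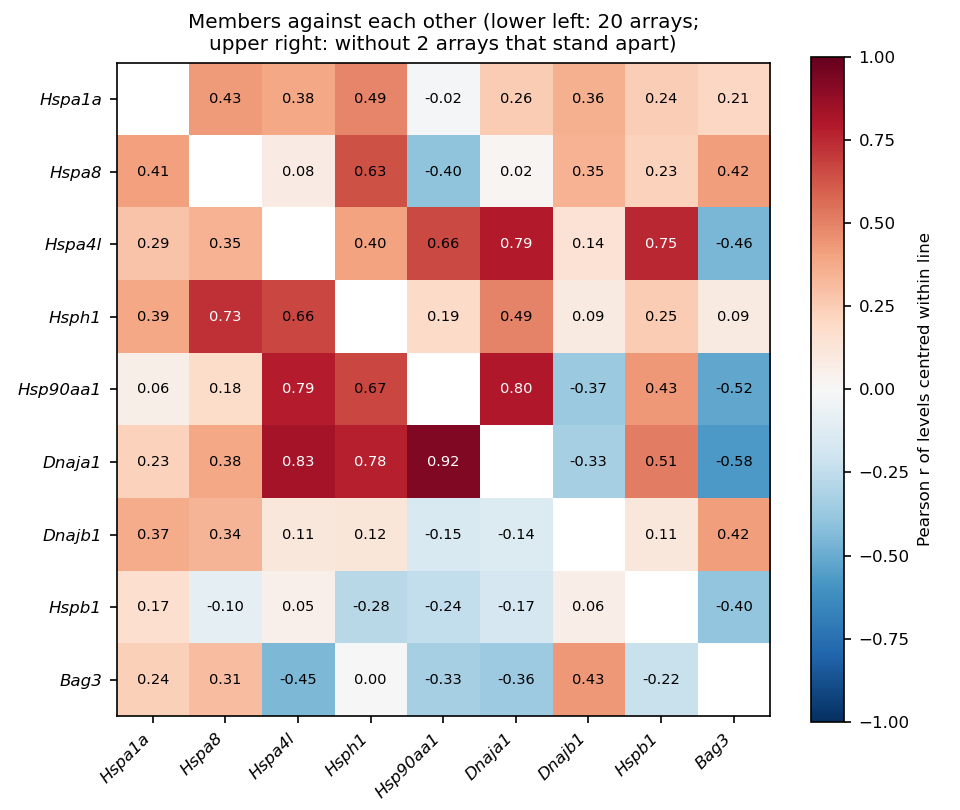
Pearson correlations between the 9 measured genes after centring each gene within its line, over 20 arrays (lower left) and without the iMEF Ubf fl/fl 24 h and MEF Ubf fl/fl 96 h arrays (upper right). Colour and number both give r, with Hsp90aa1 and Dnaja1 at 0.92 and 0.80, and Hsp90aa1 and Hspa1a at 0.06 and -0.02.

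A mean of the 9 members was taken on centred levels without scaling. Members with a wide spread, such as Hsp90aa1 and Dnaja1, thus weigh most in it. The genes most like this mean over the 20 arrays, after the same centring, were not chaperones. They were Rpp30, a subunit of RNase P (r 0.93), Cetn2, a centriole protein (0.93), Naa15, an N-terminal acetyltransferase subunit (0.93), Sf3b1, a splicing factor (0.93), Kif2a, a kinesin (0.92), Top1, a topoisomerase (0.92), Clasp2, a microtubule-binding protein (0.92), and 2700049A03Rik (0.92). In all, 375 of 15263 other genes had an r over 0.8 with this mean and 53 one under -0.8. This likeness rests on the arrays that stood apart: without both of them 13 genes had an r over 0.8, 9 of which are among the 375, and 6 one under -0.8, and the r of the 8 genes named was 0.77 to 0.85 over 18 arrays. Of the members themselves Dnaja1 (0.92), Hsph1 (0.87), Hspa4l (0.87) and Hsp90aa1 (0.86) were close to the mean, which they help to form, and Dnajb1 (0.18), Hspb1 (-0.09) and Bag3 (-0.13) were not. Without both arrays Hspb1 had 0.66, Hsp90aa1 0.62 and Hsph1 0.71, while Dnajb1 had 0.17 and Bag3 -0.18. Of the 8 genes, Naa15 (-2.47), Top1 (-2.21) and Cetn2 (-2.08) also differed most between iMEFs and MEFs.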

How the data were processed

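Expression was measured with Affymetrix whole-transcript arrays on 20 RNA samples, 1 for each of 4 lines and 5 times. The authors deposited log2 values, 1 per probe set and array, after RMA-sketch normalization with Affymetrix Power Tools 1.14.4. RMA draws the arrays to a common distribution, so a change shared by most genes is not seen, and probe sets of different genes are not on a common scale of abundance. The study's methods give the array as Mouse Gene 2.0 ST, but the probe sets were named here through a table for Mouse Gene 1.0 ST. The number of arrays limits the precision, since no condition has a replicate.

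Of 35556 probe sets, 21789 carry 1 gene symbol, 1621 carry more than 1 and 12146 have no entry in that table. Genes with several such probe sets were given the one with the highest mean, which left 19938 genes, and the 15272 over the 40th percentile of their array on at least 2 arrays were kept. All 9 measured members lay over it on all 20 arrays. Identical values were shared among 701 probe sets, 0 of them of members. All tests used limma 3.58.1 in R 4.3.3 on all genes kept, with the Benjamini-Hochberg adjustment and a threshold of 0.05. Models had a term for each line and for time (12 residual degrees of freedom), for time within cell type (8), for time within cell type and genotype by late time (6), or for cell type over line means (2). The test was run on simulated data with independent normal scatter of the arrays around the mean of each line. These data had no array that stands apart and no link between times of 1 line beyond its mean, so neither feature was checked. Plots were drawn in Python with matplotlib.

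The 10 members, the 7 partner lists and the markers were chosen with earlier results of these data known. All members are named. Up to 4 genes of each other list that passed were named by adjusted p for each comparison, and 8 genes by likeness to the members' mean. Alternatives tried were scaling by the median or by quantiles of the genes kept, no filter, averaging the probe sets of each gene, the 60th percentile as filter, other empirical Bayes settings, single times or lines left out, and each cell type fitted alone. Leaving out the iMEF Ubf fl/fl 24 h or the MEF Ubf fl/fl 96 h array, or both for the likeness, was added after the data were seen.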

Additional observations from a re-analysis of the deposited data

Results flagged for a closer look

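The change of Herpud1, an endoplasmic reticulum gene of the partner lists, from early (0 and 24 h) to late times (48 to 96 h) differed between iMEFs and MEFs by 0.64 ± 0.11 (limma, adjusted p = 0.00498). It was 0.10 in iMEFs and -0.54 in MEFs. Over 16 alternatives the difference ran from 0.56 to 0.73 with adjusted p from 0.00261 to 0.152.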

How the results depend on the processing

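Of 504 values of members recomputed under the alternatives, 463 kept their direction and side of the threshold, 12 lost and 4 gained a call and 25 changed sign. None of the sign changes was in a called value (0), and the cause of each was not tested. Of 757 values of partner genes, 614 were kept, 143 lost their call and 0 changed sign. With medians set equal, Hspa8 (0.0985) and Hspa4l (0.0585) turned in iMEFs minus MEFs, and Hspa1a (0.0729) and Dnajb1 (0.0423) in the late effect of Ubf loss in iMEFs, as with quantiles (0.1061 and 0.0415). That effect turned for Hsp90aa1 (0.2567) and Dnajb1 (0.0335) without the 24 h arrays or the iMEF Ubf fl/fl 24 h array alone, and for Dnajb1 without 96 h (0.1322). In MEFs it turned for Hspb1 without 24 h (0.009), and for Hsph1 (0.0976) and Hsp90aa1 (0.089) without 96 h or the MEF Ubf fl/fl 96 h array alone. The late change in iMEFs minus MEFs turned for Hsp90aa1 without 96 h (-0.1654), without the iMEF Ubf wt/wt line (-0.3398), the MEF Ubf fl/fl line (-0.0101) or the MEF Ubf fl/fl 96 h array (-0.0472), and for Hsph1 without the iMEF Ubf fl/fl line (0.1496) or its 24 h array (8e-04), and with a line left out these ran from -0.3398 to 0.7514 and from -0.5325 to 0.1496. Without the iMEF Ubf fl/fl line Hsph1 also turned in the late change in iMEFs (range -0.6389 to 0.0431 with a line left out), and without the iMEF Ubf wt/wt line Hspa1a and Hspb1 turned in iMEFs minus MEFs (ranges -0.0148 to 0.2386 and -0.0034 to 0.8676).

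Genes called for Ubf loss in iMEFs (34) became 99 with medians, 102 with quantiles, 92 with trend and robust settings, 14 with cell types fitted alone, 0 without 24 h, 72 h or the iMEF Ubf fl/fl 24 h array, 1663 without 96 h (1 member) and 998 without the MEF Ubf fl/fl 96 h array. In MEFs (0) there were 11 without 48 h, and in the difference (0) 5 without 96 h. Late changes in iMEFs (952) became 198, 293 and 424 without 24, 72 and 96 h, 400 without the iMEF Ubf fl/fl 24 h array and 30 to 1700 with a line left out. In MEFs (2047) they became 1325 and 918 without 24 and 72 h and 523 to 2026 with a line left out. In the difference (636) they became 291 and 216 without 24 and 72 h, 1223 without the MEF Ubf fl/fl 96 h array and 122 to 1218 with a line left out. Genes called in iMEFs minus MEFs (10131) became 3719 with 0 and 24 h alone (2 of 9 members, against 5) and 6251 to 10748 with a line left out (3 to 5 members). A line left alone in its cell type was assumed to vary like the others. The labels give no replicate numbers, and lines and times were terms of the models. Signal over background was not available from these values, and single arrays limit every comparison.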
